A study of Mus musculus with 72 samples.

Results

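The transcripts of 8 enzymes that make or use glutamate and proline were followed in mouse CD8+ T cells. The enzymes are Glul, Glud1, Got1, Got2, Gpt2, Oat, Aldh18a1 and Pycr1. They were chosen by name, but with earlier results of these data known. They were matched to the deposited count table through its gene identifiers. All 8 of 8 were found among the 55487 genes of the table, and all 8 had enough reads to be tested in every comparison. No glutaminase gene is among the 8 members.

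The cells came from OT-I mice, whose CD8+ T cells carry a transgenic receptor for the ovalbumin peptide SIINFEKL. Splenocytes were activated with that peptide at 10 ng/mL together with recombinant human IL-2 at 100 IU/mL, in serum-containing RPMI medium. The activated groups were cells given 1 µM CB-839, cells given 1 µM DON, cells in glutamine-free medium without either drug, and vehicle-treated cells in medium with glutamine. CB-839 is a selective inhibitor of glutaminase, and DON is a glutamine analogue that blocks many glutamine-using enzymes. Each of these 4 treatments was sampled by RNA sequencing at 4, 24 and 48 h, and unstimulated cells formed the remaining group, which gives 13 groups of 4 libraries lettered A to D. The labels do not say which solvent the vehicle group received, nor whether the 4 letters are separate mice. The p-values below therefore measure the spread between these libraries, which may be technical.

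Library totals ran between 25.6 M and 51 M counts. The lowest count of any member in any library was 28, for Pycr1 in an unstimulated library, and in activated cells none was under 188. The CD8 coreceptor gene Cd8a was present in every library, from 120.0 CPM (counts scaled to library size) in a glutamine-free library at 4 h to 1302 CPM in an unstimulated library. The cultures began as whole splenocytes, and all 16 B cell markers together took 0.127% to 0.301% of counts in the 4 glutamine-free libraries at 4 h and 0.170% to 0.227% in the 4 vehicle libraries at 4 h. Their sum stayed between 0.0265% and 0.0801% at 24 h and 48 h, mostly from Ighm. The 16 myeloid markers reached 0.0448% in 1 glutamine-free library at 4 h and were lower in all other libraries. The part of such cells in the results at 4 h was not tested. In bulk RNA, fewer cells of a type and less RNA per cell cannot be told apart.

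Glutamate sits between glutamine, the tricarboxylic acid cycle and proline. Glutaminase removes the amide of glutamine to give glutamate, and glutamine synthetase, the product of Glul, runs the opposite reaction. Glutamate becomes the cycle intermediate 2-oxoglutarate either through glutamate dehydrogenase, from Glud1, or through transaminases that pass its amino group to another carbon skeleton. The cytosolic and mitochondrial aspartate transaminases come from Got1 and Got2 and serve the malate-aspartate shuttle, and Gpt2 encodes the mitochondrial alanine transaminase. Glutamate is also the precursor of proline. Aldh18a1 encodes the enzyme that commits glutamate to that route, Oat encodes ornithine aminotransferase, which joins it from ornithine, and Pycr1 encodes the mitochondrial reductase that makes proline itself. Proliferating T cells are known to draw heavily on glutamine, and several amino acid synthesis genes are known targets of ATF4, the transcription factor of the amino acid deprivation response.

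Levels of different genes can be compared only per transcript length, so they are given here as TPM, in which counts are scaled for exon length and for the library. Glud1 was the most abundant of the 8 in unstimulated cells at a mean of 115 TPM, and Gpt2 and Pycr1 were the least abundant at 0.498 and 0.482 TPM. In vehicle-treated cells at 48 h the order was different. Got1 led at 165 TPM, with Got2 at 153, Aldh18a1 at 136, Glud1 at 135 and Oat at 112 TPM, while Glul stood at 36.1, Gpt2 at 10.6 and Pycr1 at 3.81 TPM. Glud1 stood above Aldh18a1 in vehicle libraries A and B and below it in C and D, so these neighbours did not differ beyond their spread (135 ± 25.1 and 136 ± 17.4 TPM, SD, n = 4). Vehicle library C at 48 h stood apart from the other 3. It had the lowest TPM of all 8 members there, such as 97.8 for Glud1 against 142 to 153 in the others, and Got1 still led in it at 135 TPM. In CPM library C was lowest only for Glul, Glud1 and Gpt2. It lay within the range of the others for Got1, Got2, Oat, Aldh18a1 and Pycr1, so its low TPM depends on the scale. Chi-square per degree of freedom between the counts of C and each other library ran between 73.7 and 155, against 7.57 to 25.7 among the others. Without it, the genes called with CB-839 at 48 h numbered 3694, against 2464 with it, and 5 of the 8 members were called, against 4. In glutamine-free cells at 48 h Aldh18a1 led at 255 TPM, and Gpt2 and Pycr1 reached 52 and 32.9 TPM, next to Glul at 33 TPM. In DON-treated cells at 48 h Glud1 led at 234 TPM, while Aldh18a1 had 72.4, Gpt2 3.5 and Pycr1 2.96 TPM. All levels below are CPM, a scale on which a gene is compared only with itself.

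**Figure D1:**
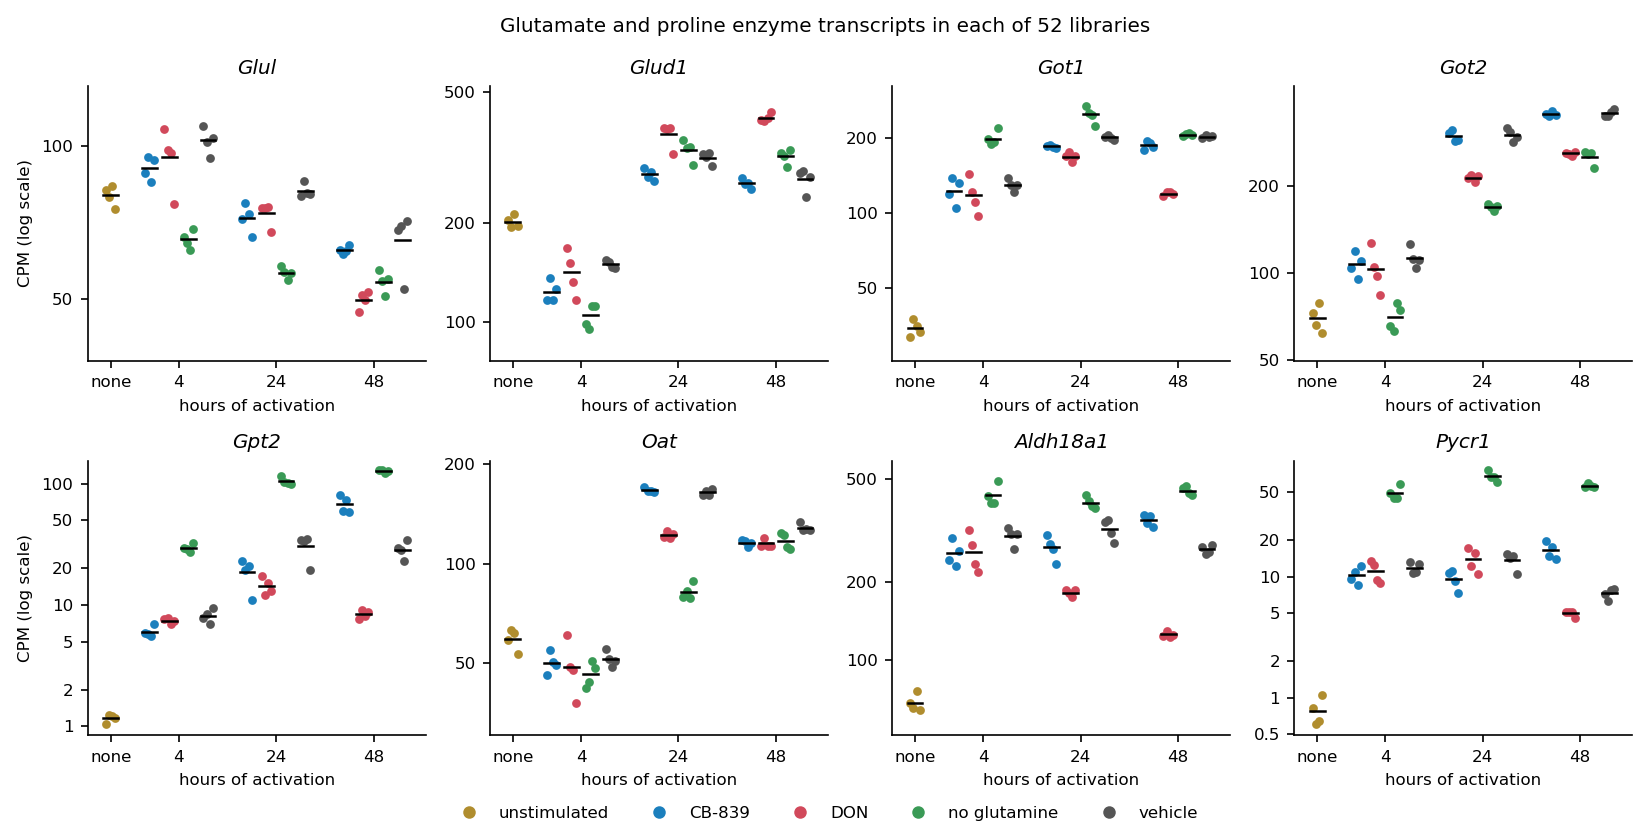
CPM on a log axis of each of the 8 enzyme transcripts in all 52 libraries, by hours of activation and treatment. Each point is 1 library and each black line the mean of 4. Gpt2, Aldh18a1 and Pycr1 in glutamine-free cells lie above the other groups of the same time at 4, 24 and 48 h.

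Activation under vehicle answers how the enzymes move when unstimulated cells are activated with glutamine present. At 4 h 6 of the 8 rose and 2 fell against unstimulated cells, where 33.9% of all 18317 genes tested rose and 41% fell. At 24 h 7 rose and none fell, where 38.7% of genes rose and 45.5% fell, and at 48 h 7 rose and 1 fell, where 38.3% rose and 45.1% fell. Between 4 h and 24 h 5 of the 8 rose and 1 fell, where 36.4% of genes rose and 37.8% fell. Here and below a gene counts as called where its p from edgeR's quasi-likelihood test, adjusted by Benjamini-Hochberg over all genes tested, was under 0.05. The median log2 fold change of the 8 at 48 h was 2.11, and that of all genes tested was -0.163. Most genes were called in these comparisons.

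Gpt2 and Pycr1 were nearly silent before activation. Gpt2 had 1.05, 1.24, 1.21 and 1.16 CPM in the 4 unstimulated libraries, and its mean was 8.16 ± 1.00 at 4 h, 30.7 ± 7.43 at 24 h and 28.6 ± 4.6 CPM at 48 h (SD, n = 4 each). Its log2 fold change at 24 h was 4.67 ± 0.19 (SE; adjusted p = 2.91e-14 by edgeR). Pycr1 averaged 0.783 ± 0.206 CPM in unstimulated libraries, ranging from 0.609 to 1.06, against means of 11.9 ± 1.24, 13.8 ± 2.19 and 7.28 ± 0.707 CPM at 4, 24 and 48 h. Its log2 fold change was 3.94 ± 0.16 at 4 h against unstimulated cells, with no call between 4 h and 24 h. Between 24 h and 48 h 1 of the 8 rose and 5 fell, where 15.6% of all genes rose and 16.8% fell. Pycr1 fell most among them, by 0.92 ± 0.13 on the log2 scale (edgeR, adjusted p = 2.34e-05).

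Aldh18a1 and Got1 also rose early. Aldh18a1 averaged 68.6 CPM in unstimulated cells and 301, 320.0 and 268 CPM at 4, 24 and 48 h, with a log2 fold change of 2.14 ± 0.08 at 4 h and no call between 4 h and 24 h. Got1 averaged 34.4 CPM before activation and 129, 201 and 202 CPM afterwards. Got2 and Oat followed a later course. Got2 averaged 69.8 CPM in unstimulated cells, then 113, 302 and 358 CPM. Oat averaged 59.2 CPM in unstimulated cells and 51.7 CPM at 4 h, before 164 CPM at 24 h and 128 CPM at 48 h. The fall of Oat at 4 h (log2 fold change -0.19 ± 0.06, adjusted p = 0.00737) was lost when unstimulated library C or vehicle library C was left out. Its adjusted p ran between 5.6e-07 and 0.453 over the alternatives.

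Glul and Glud1, for glutamine synthetase and glutamate dehydrogenase, changed less than the other members at 24 h and 48 h against unstimulated cells. Glud1 averaged 202 CPM in unstimulated cells and 149.9, 317 and 273 CPM at 4, 24 and 48 h. Against unstimulated cells it was lower at 4 h (log2 fold change -0.42 ± 0.06) and higher at 24 h and 48 h. From 24 h to 48 h it fell (-0.22 ± 0.06, edgeR, adjusted p = 0.0106), a call lost without the filter on low counts (0.177). Glul averaged 80.0 CPM in unstimulated cells and 103, 81.6 and 65.4 CPM afterwards. Glul was the member that fell at 48 h against unstimulated cells, by 0.34 ± 0.08 on the log2 scale (edgeR, adjusted p = 0.00062). Scaling by library totals alone moved the median of all genes at 48 h to -0.439. Against unstimulated cells, it ended the calls of Glul at 4 h (log2 fold change 0.13) and of Glud1 at 48 h (0.11). The Glul call at 48 h was lost only without the filter on low counts (adjusted p = 0.136).

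The comparisons with vehicle at each time ask what each way of limiting glutamine does to these transcripts. Glutamine-free cells had the most members called at 4 h. At 4 h 4 of the 8 rose and 3 fell in glutamine-free cells, where 16.2% of all genes rose and 21.4% fell, with a median log2 fold change of 0.27 for the 8 and 0.048 for all genes. At 24 h 4 rose and 3 fell, where 30% rose and 28.9% fell, and at 48 h 4 rose and 2 fell, where 28% rose and 26.3% fell. Gpt2, Aldh18a1 and Pycr1 were higher in glutamine-free cells at all 3 times, and Glul and Got2 were lower at all 3.

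DON gave no call at 4 h for any gene in the fit of the 16 libraries of that time. None of the 8 passed, 0% of the 18274 genes tested rose and 0% fell, and none of the 8 had an unadjusted p under 0.05, although 1862 of all genes did. In the same comparison edgeR called 8 of all genes with scaling by library totals alone and 25 in a fit of only the 8 libraries compared, and DESeq2, another count model, called 27. None of the 8 was among the calls under any of these. At 24 h 1 of the 8 rose and 5 fell in DON-treated cells, where 28.1% of all genes rose and 29.9% fell, and at 48 h 1 rose and 6 fell, where 35.6% rose and 35.6% fell. The median log2 fold change of the 8 was -0.27 at 24 h and -0.40 at 48 h, and that of all genes was -0.005 and -0.002. The member that rose was Glud1 both times. Scaling by library totals alone, in place of edgeR's TMM factors, moved the median of all genes to 0.185 at 24 h and 0.186 at 48 h with DON, and to 0.127 and 0.123 in glutamine-free cells.

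CB-839 lowered members early and raised some of them late. At 4 h 4 of the 8 fell and none rose in CB-839-treated cells, where 5.85% of all genes rose and 6.64% fell. They were Glul (-0.20 ± 0.05), Glud1 (-0.30 ± 0.04), Gpt2 (-0.45 ± 0.10) and Aldh18a1 (-0.24 ± 0.06). The Aldh18a1 call was lost without vehicle A, B or D or CB-839 A or C, with adjusted p up to 0.112 over the alternatives. In the fit of all 52 libraries 1 of the 4 calls, that of Glud1, was left, and Glul (adjusted p = 0.162), Gpt2 (0.0971) and Aldh18a1 (0.112) missed the threshold. At 24 h 2 fell and none rose, where 2.47% of genes rose and 2.48% fell. Its letters paired the libraries at that time, and with the replicate letter as a block 5 members fell. Over all 16269 genes tested, the block gave 1840 calls, against 806 without it. At 48 h 3 rose and 1 fell, where 8.50% of genes rose and 6.73% fell. The count at 24 h moved when single libraries were left out, and both calls lay near the threshold (edgeR, adjusted p = 0.0424 for Glul and 0.042 for Gpt2). It was 0 without any 1 of vehicle A, vehicle B, CB-839 C or CB-839 D. Calls over all genes fell there too, to 485 of 16577, 398 of 16589, 453 of 16575 and 520 of 16566. The count was 1 without vehicle C, and it was 3 at most. Over all alternatives the log2 fold change ran from -0.22 to -0.15 for Glul and from -0.89 to -0.55 for Gpt2.

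**Figure D2:**
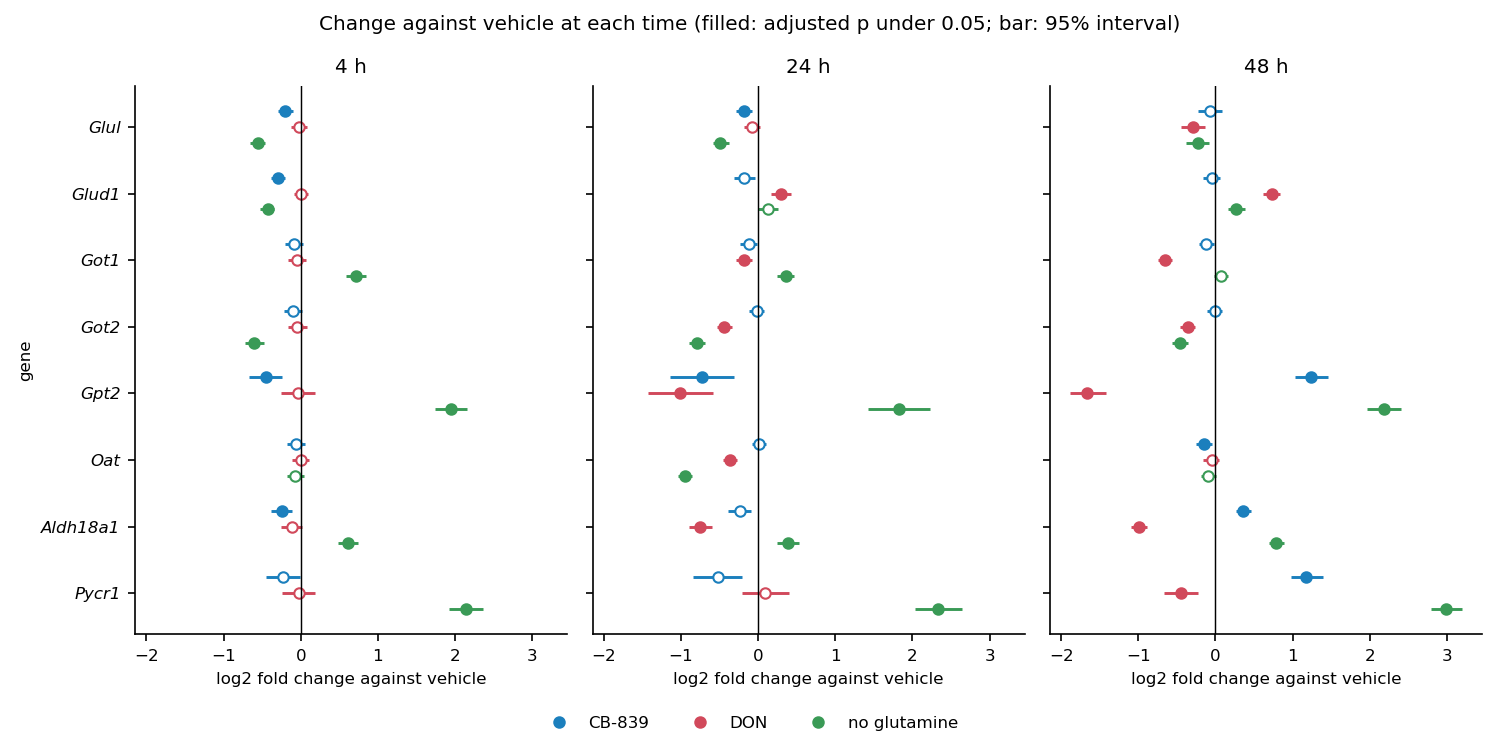
Log2 fold change of each enzyme transcript against vehicle at 4, 24 and 48 h for CB-839, DON and glutamine-free medium, with 95% intervals. Filled circles passed an adjusted p of 0.05 and open circles did not. Gpt2 and Pycr1 with CB-839 lie left of 0 at 24 h and right of it at 48 h.

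Glul, the enzyme that makes glutamine, was lower without glutamine. At 4 h it had 66.2, 64.5, 62.5 and 68.7 CPM in glutamine-free libraries, against 109.5, 102, 94.6 and 104 CPM in vehicle libraries, and the groups did not overlap. The log2 fold change was -0.56 ± 0.05 at 4 h (edgeR, adjusted p = 4.26e-08), -0.49 ± 0.05 at 24 h and -0.23 ± 0.07 at 48 h. At 48 h glutamine-free cells averaged 54.1 ± 2.67 CPM and vehicle cells 65.4 ± 8.77 CPM, with overlapping ranges, because vehicle library C stood at 52.3 CPM. That last call was lost with totals-only scaling (log2 fold change -0.13) and in a fit of only the 8 libraries. DON-treated cells had the lowest mean of all 13 groups, 49.8 ± 1.88 CPM at 48 h, and the log2 fold change against vehicle was -0.29 ± 0.07 (edgeR, adjusted p = 0.00168; -0.10 and no call with totals-only scaling). Their range overlapped that of glutamine-free cells at 48 h, and glutamine-free against DON cells gave no call (0.06 ± 0.07, edgeR, adjusted p = 0.511). With CB-839 Glul was lower by 0.20 ± 0.05 at 4 h and 0.18 ± 0.05 at 24 h on the log2 scale. The call at 24 h (adjusted p = 0.0424) was lost under 10 of 15 alternatives, with adjusted p up to 0.324, and the call at 4 h was lost without the filter on low counts (adjusted p = 0.056) and in the fit of all 52 libraries (0.162). At 48 h CB-839 gave no call (adjusted p = 0.576; 0.0161 without vehicle library C).

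Glud1, the dehydrogenase, went the other way under DON. At 48 h it had 413, 409, 419 and 436 CPM in DON libraries, against 285, 289, 241 and 277 CPM in vehicle libraries. Every DON library lay above every vehicle library, with a log2 fold change of 0.73 ± 0.05 (edgeR, adjusted p = 4.09e-10). The rise at 24 h was smaller, at 0.30 ± 0.06, and the groups overlapped because DON library D stood at 324 CPM beside 388 to 390.3 CPM in the other 3. In glutamine-free cells Glud1 was lower at 4 h (105 ± 8.75 CPM, against 149.9 ± 4.38 CPM in vehicle cells) and higher at 48 h (319.7 ± 16 CPM, against 273 ± 21.9 CPM in vehicle cells). Those changes were -0.43 ± 0.04 and 0.27 ± 0.05 on the log2 scale, and both passed the test. The processed pseudogene Glud-ps, which resembles Glud1, had 12.2 ± 1.32 CPM in DON cells and 7.57 ± 1.02 CPM in vehicle cells at 48 h, and reads could have been split between the loci.

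The 2 aspartate transaminases parted when glutamine was absent. Got1, the cytosolic form, had 198, 189, 192 and 219 CPM in glutamine-free libraries at 4 h, against 138, 129, 121 and 129 CPM in vehicle libraries. Got2, the mitochondrial form, had 65.3, 63.0, 78.6 and 74.3 CPM in the same glutamine-free libraries, against 126, 112, 104 and 110.4 CPM in vehicle libraries. Neither gene's groups overlapped. Got1 was 0.71 ± 0.06 higher and Got2 0.60 ± 0.06 lower on the log2 scale (edgeR, adjusted p = 2.28e-08 and 2.04e-07). At 24 h Got1 was higher by 0.36 ± 0.05 and Got2 had a log2 fold change of -0.79 ± 0.05. At 48 h Got1 gave no call (0.07 ± 0.04, adjusted p = 0.189), while Got2 stayed lower (-0.46 ± 0.05, adjusted p = 1.8e-07).

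DON lowered both aspartate transaminases. Got1 had 117, 121, 121 and 119 CPM in DON libraries at 48 h, against 200.1, 205, 201 and 204 CPM in vehicle libraries, a log2 fold change of -0.65 ± 0.04 (edgeR, adjusted p = 1.33e-10). The 2 sets of libraries were tight and far apart. At 24 h the fall of Got1 was 0.18 ± 0.05 on the log2 scale, its sign turned with totals-only scaling (0.01), and the call was lost without DON library C. Got2 averaged 259.7 ± 3.38 CPM in DON cells and 358 ± 10.2 CPM in vehicle cells at 48 h (log2 fold change -0.36 ± 0.05). CB-839 gave no call for Got1 or Got2 at any of the 3 times in edgeR, while DESeq2 called Got1 lower at 48 h (-0.13, adjusted p = 0.00829). The 95% interval for Got2 at 48 h ran from -0.11 to 0.09.

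The ratio of Got1 to Got2 in TPM shows the same split without any scaling between libraries. It was 5.42 ± 0.529 in glutamine-free cells at 4 h, against 2.18 ± 0.0604 in vehicle cells, and 2.79 ± 0.195 at 24 h, against 1.26 ± 0.0563 in vehicle cells. At 48 h it was 1.55 ± 0.0910 in glutamine-free cells, 0.875 ± 0.0245 in DON cells, 0.998 ± 0.0419 in CB-839 cells and 1.07 ± 0.0297 in vehicle cells. The glutamine-free ratio exceeded every vehicle library of its time at all 3 times. Got2 shares 9% of its exon bases with the overlapping gene Gm45760, and the processed pseudogene Got2-ps1 had 12.6 ± 0.569 CPM in glutamine-free cells and 18.8 ± 1.34 CPM in vehicle cells at 48 h. The Got2 counts are uncertain to that extent.

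**Figure D3:**
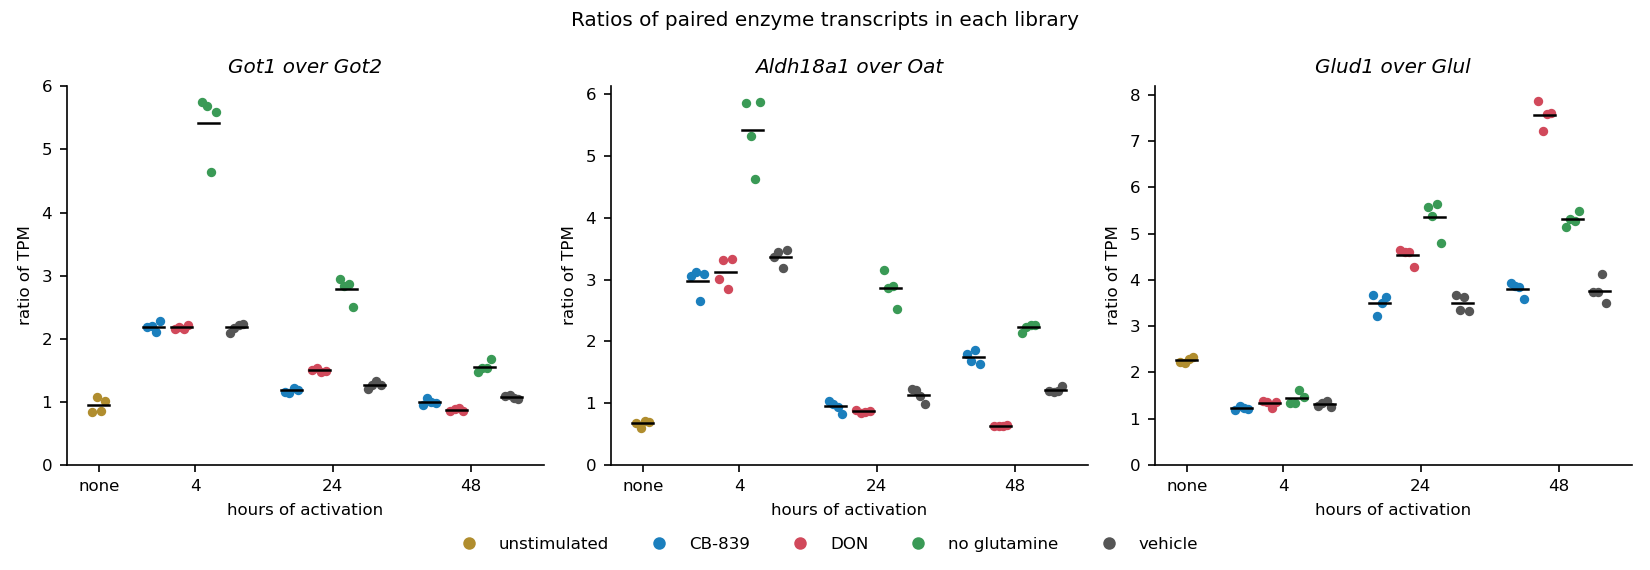
Ratio of TPM of Got1 to Got2, Aldh18a1 to Oat, and Glud1 to Glul in each library, by hours of activation and treatment, with the mean of 4 as a line. Glutamine-free cells have the highest Got1 to Got2 and Aldh18a1 to Oat ratios at each time, and DON cells have the highest Glud1 to Glul ratio at 48 h.

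Gpt2, the alanine transaminase, changed direction with the treatment. Without glutamine it had 29.6, 29.2, 27.6 and 32.2 CPM at 4 h, against 7.83, 8.44, 7.01 and 9.38 CPM in vehicle libraries. At 24 h it had 116, 104, 102 and 99.5 CPM in glutamine-free libraries, against 34.6, 33.6, 35 and 19.6 CPM in vehicle libraries. At 48 h it had 129, 129, 123 and 127 CPM in glutamine-free libraries, against 29.3, 28.2, 22.9 and 34.1 CPM in vehicle libraries. The groups were apart at each time. The fold was 3.86 at 4 h, 3.54 at 24 h and 4.57 at 48 h, and the log2 fold change at 48 h was 2.19 ± 0.11 (edgeR, adjusted p = 9.14e-12).

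DON moved Gpt2 down. It had 7.61, 9.16, 8.08 and 8.80 CPM in DON libraries at 48 h, and all 4 lay under the lowest vehicle library. The log2 fold change against vehicle was -1.66 ± 0.11 at 48 h (edgeR, adjusted p = 1.77e-10) and -1.01 ± 0.20 at 24 h. With CB-839 the libraries at 24 h had 23.1, 19.5, 20.8 and 11.1 CPM, and those at 48 h had 80.3, 59.9, 73.6 and 58.4 CPM. At 24 h all 4 lay under vehicle libraries A, B and C, with vehicle library D among them, and at 48 h all 4 lay above the highest vehicle library. The log2 fold change was -0.45 ± 0.10 at 4 h, -0.73 ± 0.20 at 24 h and 1.24 ± 0.10 at 48 h (edgeR, adjusted p = 0.00574, 0.042 and 8.49e-07). Letter D was low in both groups at 24 h, at 11.1 CPM with CB-839 and 19.6 CPM with vehicle. With the replicate letter as a block the 24 h call remained, and it was lost under 8 of 15 alternatives, with adjusted p up to 0.165.

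Pycr1 showed the largest change among the 8 without glutamine. At 48 h it had 54.8, 59.2, 55.7 and 55 CPM in glutamine-free libraries, against 7.13, 6.35, 7.74 and 7.91 CPM in vehicle libraries. The groups were far apart, a 7.95-fold difference and a log2 fold change of 2.99 ± 0.10 (edgeR, adjusted p = 6.38e-14). The fold was already 4.4 at 4 h and was 5.04 at 24 h. With CB-839 Pycr1 had 19.7, 14.7, 17.6 and 14.1 CPM at 48 h, all above the vehicle libraries (log2 fold change 1.18 ± 0.10, adjusted p = 7.1e-07). At 24 h it had 10.7, 11.2, 9.19 and 7.39 CPM with CB-839, against 15.4, 14.4, 14.7 and 10.6 CPM with vehicle. That difference missed the threshold (-0.52 ± 0.15, adjusted p = 0.0509) and passed it with the replicate letter as a block (-0.52 ± 0.09, adjusted p = 0.00034). DON gave no call for Pycr1 at 24 h (0.09 ± 0.15, 95% interval -0.21 to 0.40) and lowered it at 48 h, with 5.11, 5.10, 5.11 and 4.56 CPM in DON libraries and a log2 fold change of -0.44 ± 0.10.

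Aldh18a1, at the entry of the route, rose less than Pycr1 without glutamine and fell further with DON. At 48 h it had 459, 470.2, 439.7 and 433 CPM in glutamine-free libraries, against 274, 257, 262 and 278 CPM in vehicle libraries (log2 fold change 0.79 ± 0.05, adjusted p = 1.28e-10 by edgeR). CB-839 libraries had 363, 337, 358 and 325 CPM at 48 h (0.36 ± 0.05), and DON libraries had 124, 129.7, 123 and 125 CPM (-0.99 ± 0.05, adjusted p = 1.39e-12). At that time the 4 treatments formed 4 separate sets of libraries, highest without glutamine and lowest with DON. At 24 h DON libraries were lower by 0.75 ± 0.07 and glutamine-free libraries higher by 0.39 ± 0.07 on the log2 scale. CB-839 gave -0.24 ± 0.07 at 24 h without a call (adjusted p = 0.0522), and -0.24 ± 0.05 with a call under the replicate block (adjusted p = 0.00293).

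Oat, the entry from ornithine, did not follow Aldh18a1. At 24 h it had 79.3, 82.6, 78.5 and 88.5 CPM in glutamine-free libraries, against 161, 165, 161 and 168 CPM in vehicle libraries. No library overlapped, and the log2 fold change was -0.95 ± 0.04 (edgeR, adjusted p = 4.55e-13). DON lowered it less at that time, with 120.4, 125, 119 and 123 CPM and a log2 fold change of -0.36 ± 0.04. At 48 h neither gave a call in edgeR, although every library of both lay under the lowest vehicle library in CPM. The means were 117 ± 6.91 CPM in glutamine-free cells, 115 ± 2.78 in DON cells, 115 ± 2.73 in CB-839 cells and 128 ± 3.16 in vehicle cells. CB-839 passed the test there with a small fall (-0.15 ± 0.05, adjusted p = 0.0357) that was lost under 10 of 15 alternatives, with adjusted p up to 0.276. The DON difference at 48 h turned its sign with totals-only scaling and was then called (0.13, adjusted p = 0.0157), and DESeq2 called Oat lower in glutamine-free cells (-0.11, adjusted p = 0.0339).

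The Aldh18a1 to Oat ratio in TPM was 2.86 ± 0.260 in glutamine-free cells at 24 h, against 1.13 ± 0.115 in vehicle cells. At 48 h it was 2.23 ± 0.0611 in glutamine-free cells, 1.74 ± 0.105 in CB-839 cells, 0.636 ± 0.00464 in DON cells and 1.21 ± 0.0423 in vehicle cells. The DON value was close to that of unstimulated cells, 0.672 ± 0.0491, with overlapping ranges. The Glud1 to Glul ratio at 48 h was 7.57 ± 0.258 in DON cells, 5.31 ± 0.142 in glutamine-free cells, 3.81 ± 0.157 in CB-839 cells and 3.77 ± 0.264 in vehicle cells. At 24 h it was 5.35 ± 0.381 in glutamine-free cells, 4.54 ± 0.166 in DON cells, 3.51 ± 0.212 in CB-839 cells and 3.49 ± 0.188 in vehicle cells.

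The promoters of Aldh18a1 and Pycr1 are printed because both genes passed the test with CB-839 at 48 h and their windows hold a motif that was searched for. The promoter of Got1, which gave no call there, is added because it holds the same motif as Pycr1, a choice made after its values were seen. The sequences are from RefSeq, build GRCm38.p6, minus strand, 250 bases before to 50 after the start. They cover chr19:40588414-40588713 for Aldh18a1, chr11:120643699-120643998 for Pycr1 and chr19:43524556-43524855 for Got1. Capitals mark the motif.
Aldh18a1: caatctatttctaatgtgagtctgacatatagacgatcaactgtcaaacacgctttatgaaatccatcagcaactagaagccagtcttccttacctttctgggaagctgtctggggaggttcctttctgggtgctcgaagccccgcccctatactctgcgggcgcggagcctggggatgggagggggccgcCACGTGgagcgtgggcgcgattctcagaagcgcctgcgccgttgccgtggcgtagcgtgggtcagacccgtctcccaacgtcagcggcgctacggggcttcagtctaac
Pycr1: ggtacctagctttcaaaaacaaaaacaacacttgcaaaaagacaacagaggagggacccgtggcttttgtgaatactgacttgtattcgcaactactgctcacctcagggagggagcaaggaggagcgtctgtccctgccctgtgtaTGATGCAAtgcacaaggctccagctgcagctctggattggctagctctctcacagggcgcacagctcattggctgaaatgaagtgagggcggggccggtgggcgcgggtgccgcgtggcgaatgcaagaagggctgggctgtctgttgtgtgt
Got1: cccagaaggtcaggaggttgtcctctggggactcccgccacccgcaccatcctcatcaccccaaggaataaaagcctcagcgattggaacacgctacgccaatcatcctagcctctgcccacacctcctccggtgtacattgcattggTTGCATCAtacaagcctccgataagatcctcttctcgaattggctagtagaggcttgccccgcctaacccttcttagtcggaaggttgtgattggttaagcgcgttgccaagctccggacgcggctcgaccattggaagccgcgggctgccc

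The motif TGATGNAA is the core of the C/EBP-ATF response element, which ATF4 is known to bind, and CACGTG is the E-box that Myc and related factors are known to bind. Both were searched for on both strands. Pycr1 holds TGATGCAA at -103 to -96 from the start, and Got1 holds the same element on the opposite strand, read as TTGCATCA, at -102 to -95. The element occurs in 3.97% of the 32851 promoters of the table, against 2 of the 8 members here. Aldh18a1 holds CACGTG at -59 to -54, a motif found in 7.15% of all promoters. The promoter windows of Glul, Glud1, Got2, Gpt2 and Oat hold neither string in these 300 bases. A match is a string of letters and not a measured binding site.

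Whether a treatment acted differently at 48 h than at 24 h was tested as a difference of effects in 1 fit of all 52 libraries. For CB-839, 3 of the 8 differed, all upward, where 0.508% of 21069 genes differed upward and 0.418% downward. Gpt2 differed by 1.97 ± 0.20 on the log2 scale (adjusted p = 1.54e-08 by edgeR), Pycr1 by 1.71 ± 0.20 (adjusted p = 1.48e-07) and Aldh18a1 by 0.60 ± 0.12 (adjusted p = 0.00256). In each of the 3 the effect in that fit was below 0 at 24 h and above 0 at 48 h, -0.72 and 1.25 for Gpt2, -0.52 and 1.19 for Pycr1, and -0.23 and 0.37 for Aldh18a1. These 3 calls held when any letter was left out. The median over all genes was -0.018.

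For DON 4 of the 8 differed, where 10.8% of genes differed upward and 16.1% downward. Glud1 moved further up (0.39 ± 0.11), and Got1 (-0.51 ± 0.11) and Gpt2 (-0.68 ± 0.21) moved further down at 48 h than at 24 h. Pycr1 differed by -0.57 ± 0.21, with an effect of 0.02 at 24 h and -0.55 at 48 h in that fit. For glutamine-free medium 4 differed, all upward, where 9.84% of genes did so and 7.78% differed downward. Oat differed most, by 0.87 ± 0.11 (edgeR, adjusted p = 5.13e-09), since its fall at 24 h was no longer called at 48 h. Pycr1 differed by 0.66 ± 0.20, Aldh18a1 by 0.41 ± 0.12 and Got2 by 0.34 ± 0.11. Without letter D 7 members passed for glutamine-free medium, while Got2 was lost without letter A and Pycr1 without letter B. For DON, Gpt2 was lost without letter A and Pycr1 without A, C or D, and 7 members passed with relative log expression scaling. The shares of all genes above are those of the main fit, and none was taken for these alternatives.

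**Figure D4:**
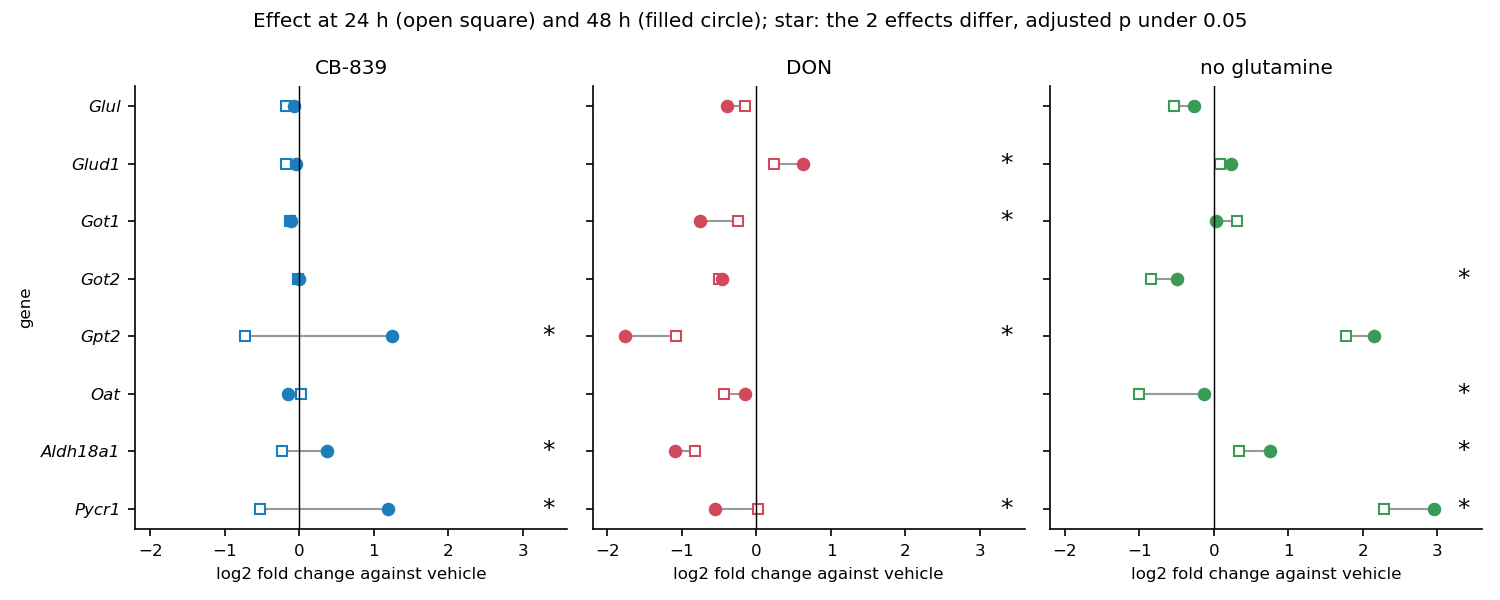
Log2 fold change against vehicle at 24 h (open squares) and 48 h (filled circles) from the fit of all 52 libraries, for CB-839, DON and glutamine-free medium. A star marks an enzyme whose effects at the 2 times differed at an adjusted p under 0.05. With CB-839 these are Gpt2, Aldh18a1 and Pycr1, and with DON they are Glud1, Got1, Gpt2 and Pycr1. For glutamine-free medium they are Got2, Oat, Aldh18a1 and Pycr1.

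The treatments were also compared with each other. These comparisons share libraries with those above and are not independent of them. At 48 h 1 of the 8 was higher and 6 were lower in DON cells than in CB-839 cells, where 35.7% of all genes were higher and 34.7% lower. Gpt2 averaged 8.41 ± 0.699 CPM in DON cells and 68.0 ± 10.7 CPM in CB-839 cells, a log2 difference of -2.90 ± 0.11 (edgeR, adjusted p = 8.91e-14). Pycr1 averaged 4.97 ± 0.273 CPM in DON cells and 16.5 ± 2.61 CPM in CB-839 cells, a log2 difference of -1.63 ± 0.10. Oat was the member without a call (0.10 ± 0.05, adjusted p = 0.071). It was called higher in DON cells under 4 of 15 alternatives, with relative log expression scaling (adjusted p = 0.0343), totals-only scaling (4.97e-05), DESeq2 (0.016) and the fit of 8 libraries (0.0235). At 24 h 2 were higher and 3 lower in DON cells than in CB-839 cells, where 29% of genes were higher and 30.8% lower. Gpt2 gave no call then (-0.28 ± 0.20, 95% interval -0.71 to 0.14).

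Glutamine-free and CB-839 cells differed at 48 h for 6 members, 5 higher and 1 lower without glutamine, where 26.6% of genes were higher and 24.4% lower. Pycr1 was higher without glutamine by 1.81 ± 0.09 and Gpt2 by 0.95 ± 0.10 on the log2 scale, and Got2 was the lower one (-0.45 ± 0.05). At 24 h 5 were higher and 3 lower, where 29.1% were higher and 28.9% lower. Glutamine-free cells were also set against DON cells. At 48 h 4 were higher and 1 lower, where 34.6% of genes were higher and 34.1% lower, with Gpt2 14.4-fold, Pycr1 10.8-fold and Aldh18a1 3.43-fold higher without glutamine. Glud1 was the lower one (-0.46 ± 0.05). At 24 h 4 were higher and 4 lower, where 28.7% were higher and 30.2% lower.

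Over the 13 group means some members varied together. Across these groups, which share no library, Pearson's r of mean log2 CPM was 0.91 between Aldh18a1 and Pycr1, 0.88 between Got1 and Gpt2 and 0.86 between Gpt2 and Pycr1. A second pair was Got2 and Oat, with r = 0.92. Oat and Pycr1 had r = 0.04. The groups are set by time and treatment, so these values describe the groups and carry no p.

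Outside the 8, the genes closest to each member in this pattern were named among 8271 candidates. Gpt2 was closest to Asns, asparagine synthetase, which uses glutamine as its nitrogen donor (r = 0.995 over 13 groups), and to Arl14ep (0.961). Aldh18a1 was closest to Aars, the alanyl-tRNA synthetase (0.987), and Slc7a5, a large neutral amino acid transporter (0.983). Pycr1 was closest to Phf10 (0.991) and Slc6a9, a glycine transporter (0.972). Got1 was closest to Psat1, the phosphoserine transaminase that uses glutamate (0.979), and Ell2, an elongation factor (0.975). Oat was closest to Lin9 (0.991) and Cdk1, the mitotic kinase (0.988). Glud1 was closest to Btrc (0.988) and Tmed4 (0.987), and Glul had no close partner, with Tbc1d10a and Atxn7l2 both at 0.878. Got2 was closest to its own pseudogene Got2-ps1 (0.997) and to Itpa-ps1 (0.990).

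Other genes of glutamate and proline metabolism were taken from a list of 31 symbols, of which 30 were in the table and 25 or 26 were tested after activation at 24 h and 48 h. In glutamine-free cells at 48 h 10 of 26 rose and 9 fell, where 28% of all genes rose and 26.3% fell. Asns rose by 2.40 ± 0.09 and Psat1 by 0.68 ± 0.05 on the log2 scale, while Slc25a13, a mitochondrial aspartate-glutamate carrier, fell by 1.21 ± 0.09 and Odc1, ornithine decarboxylase, fell by 0.63 ± 0.06. At 24 h 7 of 25 rose and 9 fell, where 30% of all genes rose and 28.9% fell. Gclc, the catalytic subunit of glutamate-cysteine ligase, rose by 0.71 ± 0.04 and Psat1 by 0.74 ± 0.05, while Odc1 fell by 0.94 ± 0.06 and Slc25a13 fell by 0.96 ± 0.08. The list's median log2 fold change was 0.18 at 48 h and -0.11 at 24 h, and that of all genes was 0.022 and 0.025.

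In DON cells at 48 h 6 of 26 rose and 13 fell, where 35.6% of all genes rose and 35.6% fell. Bcat1, the cytosolic branched-chain transaminase, fell by 1.71 ± 0.06, Asns fell by 1.47 ± 0.09, Odc1 fell by 0.89 ± 0.06 and Slc25a12, another aspartate-glutamate carrier, fell by 0.59 ± 0.05. At 24 h 7 of 25 rose and 10 fell, where 28.1% of all genes rose and 29.9% fell, with Bcat1 (-1.10 ± 0.05), Odc1 (-0.55 ± 0.06), Psat1 (-0.46 ± 0.05) and Bcat2, the mitochondrial branched-chain transaminase (-0.52 ± 0.07), the most firmly called. In CB-839 cells 4 of 25 fell and none rose at 24 h, where 2.48% of all genes fell and 2.47% rose. At 48 h 4 of 26 rose and 2 fell, where 8.50% rose and 6.73% fell. Asns had log2 fold changes of -0.77 ± 0.15 at 24 h and 1.00 ± 0.09 at 48 h, and Psat1 had -0.21 ± 0.05 and 0.41 ± 0.05. Also called at 24 h were Slc25a11, the mitochondrial 2-oxoglutarate carrier (-0.34 ± 0.06), and Bcat1 (-0.25 ± 0.05). At 48 h Odc1 (-0.22 ± 0.06) and Gclc (0.22 ± 0.06) passed as well. The list was not tested as a set.

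At 48 h the chromatin of the same kinds of cells was profiled by CUT&RUN, with peaks deposited as 1 merged list per treatment and histone mark. Acetylation of histone H3 at lysine 27 (H3K27ac) marks active promoters and enhancers, and its trimethylation (H3K27me3) marks repressed regions. Within 1000 bases of the gene start, an H3K27ac peak lay at 5 of the 8 members in the glutamine-free list and at 6 in the vehicle list. The share of all genes in the table with such a peak was 9.85% in the glutamine-free list and 14.4% in the vehicle list. Among the 16403 genes with a mean of at least 10 counts it was 27.9% and 41%. Glud1, Got1, Gpt2, Oat and Aldh18a1 had a peak in both lists, Got2 had one in the vehicle list, and Glul and Pycr1 had none.

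The Gpt2 peak covered chr8:85491592-85492802 in the glutamine-free list and chr8:85491178-85492453 in the vehicle list, in mm10 coordinates. It ran from -984 to 226 bases of the start without glutamine and from -1398 to -123 with vehicle. The Glud1 peak was 3084 bases long in the glutamine-free list and 8440 bases long in the vehicle list, reaching 7689 bases into the gene in the vehicle list. The authors' signal value was 11.9 for Gpt2 in the glutamine-free list and 8.93 in the vehicle list, and such values rank peaks only within a list. The CB-839 and DON lists held 117 and 33 H3K27ac peaks in all, so that no member had one there says nothing of the members. No H3K27me3 peak lay within 1000 bases of any member's start in the 4 lists. The share of all genes with one was 10.5% with CB-839, 4.14% with DON, 8.13% without glutamine and 10.2% with vehicle.

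**Figure D5:**
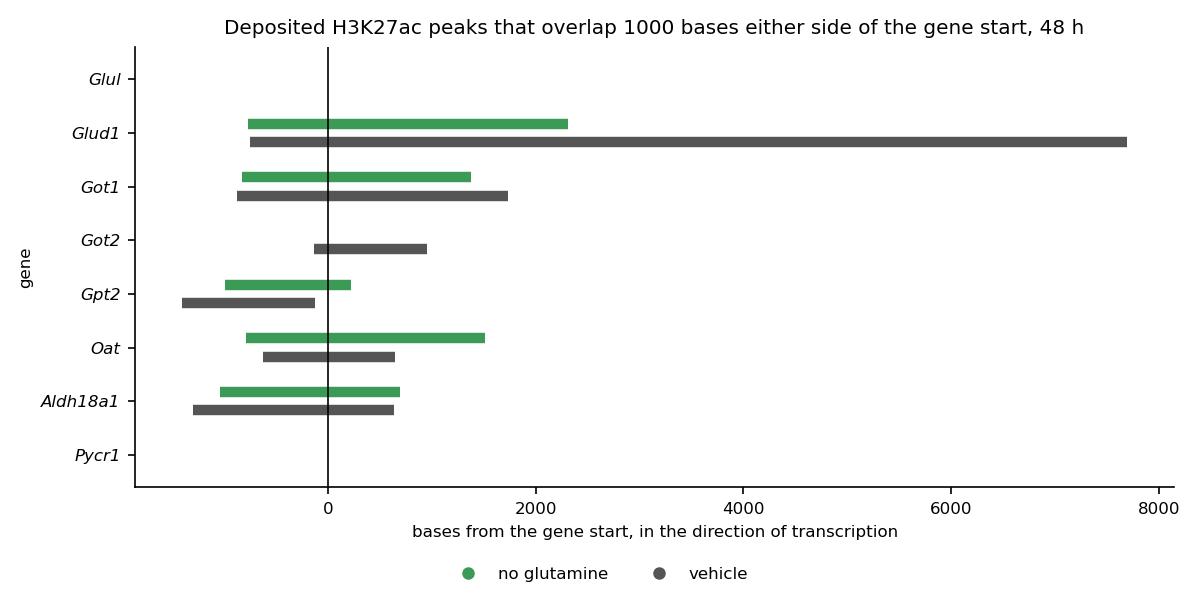
Deposited H3K27ac peaks at 48 h that overlap 1000 bases either side of each enzyme's gene start, in bases from the start along the direction of transcription. Green bars are the glutamine-free list and grey bars the vehicle list. Bars show presence and extent only, and Glul and Pycr1 have none.

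The coordinates of the members in mm10 were as follows, each the span of the gene in the count table. Glul lay at chr1:153899944-153909723 on the plus strand, Glud1 at chr14:34310727-34345265 on the plus strand and Gpt2 at chr8:85492576-85527560 on the plus strand. On the minus strand lay Got1 at chr19:43499752-43524605, Got2 at chr8:95864134-95888547, Oat at chr7:132557478-132576398, Aldh18a1 at chr19:40550257-40588463 and Pycr1 at chr11:120635712-120643769. Glul shared 3.07% of its exon bases with Teddm2 and Mir8114, and the other members except Got2 shared none.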

How the data were processed

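RNA sequencing of 52 libraries gave the levels, and CUT&RUN at 48 h gave the peak lists. The authors deposited raw read counts per gene, made with featureCounts 2.0.1 on GENCODE M25 without a strand option, per the file headers. The submitters' processing notes name STAR, Bowtie2, MACS2 and the build mm10. The library preparation was stranded, per the labels' protocols, so reads from a gene and its antisense partner cannot be told apart in these counts. How reads matching several loci were treated is not given in the sources used here. The authors' deposited peak lists hold a signal value and a −log10 irreproducible discovery rate (IDR) for each peak, merged over replicates and kept at an IDR of 0.05. Of 55487 gene identifiers 55141 matched a symbol. No gene of the mitochondrial genome had a count.

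Counts were tested in R 4.3.3 with edgeR 4.0.16 (TMM scaling, filterByExpr by group, robust quasi-likelihood F-test, Benjamini-Hochberg adjustment over all genes, threshold 0.05). The 16 libraries of the activation course, and the 16 of each time, shared 1 fit, and the differences between times came from a fit of all 52. SE is the absolute log2 fold change divided by the square root of F. CPM used TMM factors over all 52 libraries, so a ratio of mean CPM can differ from the fitted fold. TPM came from the counts and the deposited exon lengths. The model code was tested on simulated data with 200 changed genes. DESeq2 1.42.0, other scalings, no filter, other sets of libraries, leaving out each library, and the replicate letter as a block were alternatives. For the block, letters were taken to pair 2 groups where all 4 same-letter correlations of deviations from the group means were over 0.1. This held at 24 h for CB-839 against vehicle (0.59 to 0.76) and for glutamine-free against DON (0.12 to 0.36), at 4 h for CB-839 (0.57 to 0.67) and DON (0.21 to 0.66) against vehicle, and at 48 h for DON against CB-839 (0.17 to 0.31). No 2 libraries of a group were counted as 1.

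All 8 members are described. Named from the wider list are up to 4 genes per comparison with the smallest adjusted p among those called, and for each member the 2 genes with the highest correlation over group means, drawn from genes whose log2 CPM averaged 3 or more. Promoters were printed for members called with CB-839 at 48 h whose window held a motif, and all 8 of 8 members matched the promoter table. The members, lists and comparisons were chosen with earlier results of these data known.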

Additional observations from a re-analysis of the deposited data

Results flagged for a closer look

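In 7 of 104 groups of 4 libraries, 1 library stood apart from the other 3 by Dixon's criterion at the 95% level. Chance gives about 1 group in 20. Glul was low in DON library D at 24 h (67.8 CPM) and in vehicle library C at 48 h (52.3 CPM). Glud1 was low in DON library D at 24 h (324 CPM), and Got2 was low in glutamine-free library D at 48 h (232 CPM). Gpt2 was low in vehicle library D at 24 h (19.6 CPM). In DON cells at 48 h, Oat was high in library B (119 CPM) and Pycr1 was low in library D (4.56 CPM).

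The effect against vehicle differed between 48 h and 24 h in 11 of 24 tests, given as the 48 h effect minus the 24 h effect on the log2 scale. With CB-839 it was 1.97 for Gpt2, 1.71 for Pycr1 and 0.60 for Aldh18a1. With DON it was 0.39 for Glud1, -0.51 for Got1, -0.68 for Gpt2 and -0.57 for Pycr1. Without glutamine it was 0.87 for Oat, 0.66 for Pycr1, 0.41 for Aldh18a1 and 0.34 for Got2.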

How the results depend on the processing

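Of 2929 recomputed values, 2592 were for single genes, and 2459 of these kept their side of the threshold. Among the values without a call, 49 changed sign. The other 337 were counts of members, of which 321 stayed within a factor of 1.5 of the main count. Of 128 called results for single genes, 106 kept the call under every alternative run and 22 lost it under at least 1. With totals-only scaling the sign turned for Got1 in DON cells at 24 h against vehicle (0.01) and against CB-839 (0.12), and for Oat in DON cells at 48 h against vehicle (0.13). The 2 members called with CB-839 at 24 h became 1 without the count filter, 1 in the fit of all 52 libraries, 0 in the fit of 8 libraries, 4 with DESeq2, 5 with the replicate block, and between 0 and 3 when single libraries were left out. Calls over all genes moved too, from 806 of 16269 to 747 of 35989, 229 of 21069 and 441 of 14900 in the first 3 of these. They were 1295 of 16269 with DESeq2, 1840 with the block, and 398 to 789 when single libraries were left out. The 4 called with CB-839 at 4 h became 1 in the fit of all 52, where 1518 of 21069 genes were called, against 2282 of 18274. For the difference between times, the 4 called with DON became 7 with relative log expression scaling and 7 in the fit of 32 libraries, and the 4 called without glutamine ran between 3 and 7 when a letter was left out. The share of all genes differing between times was taken only in the main fit. Whether calls over all genes moved alike in these alternatives therefore cannot be told. Within 2500 bases, H3K27me3 peaks reached 1 member with CB-839 (Pycr1) and 1 with vehicle (Gpt2). The causes of these shifts were not tested.

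Where the letters paired the libraries, the block changed no other call than the 3 added for CB-839 at 24 h, Glud1 (-0.17, adjusted p = 0.00687 by edgeR), Aldh18a1 and Pycr1. Where they shared only a letter, it added Glud1 without glutamine at 24 h, Glul for DON against CB-839 at 24 h and Got1 in the glutamine-free difference between times, and it ended the Oat call with CB-839 at 48 h (adjusted p = 0.0504). At an IDR of 0.01 only the DON list kept any H3K27ac peak, so that setting gave no value for the others. Gpt2 and Pycr1 in unstimulated cells rest on the fewest counts.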
